A study of Mus musculus with 39 samples.

Results

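The liver of mice with a letrozole-induced model of polycystic ovary syndrome (PCOS) was compared with the liver of control mice, both given vehicle. The comparison held 8 of the 39 libraries of the series, 4 from PCOS vehicle mice and 4 from control vehicle mice, and was chosen by tissue and arm alone. Letrozole, an inhibitor of the aromatase that turns androgens into oestrogens, was given before puberty to C57Bl6/J mice. From 12 weeks of age the mice received vehicle by mouth for 6 weeks, after which poly-A RNA of the liver was sequenced. All mice were C57Bl6/J, and what the controls received before puberty is not stated in the labels. Control mice are given below in the order 789, 801, 802 and 804, and PCOS mice in the order 770, 773, 785 and 814, by the mouse numbers of the labels.

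Liver of mice is one of the tissues whose transcripts differ most between the sexes. Growth hormone is released in pulses in males and more evenly in females, and the transcription factor STAT5b carries this difference to the hepatocyte, where factors such as BCL6, CUX2 and TRIM24 shape the response. Female-typical liver is known for particular cytochrome P450 and sulfotransferase genes, and male-typical liver for major urinary proteins and other P450 genes. Androgen and oestrogen act on the same programme, partly through the pituitary.

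The libraries held 12389970 to 16110845 reads, with 15334 to 19400 genes having at least 1 read. Expression is in FPKM as the authors deposited it, and differences are PCOS minus control on the log2(FPKM + 0.5) scale, which understates changes of low genes. A gene is called when limma gave an adjusted p under 0.05 over the 14021 genes tested. Hepatocyte markers were high in all libraries (summed 77325 to 94576 FPKM in controls and 82122 to 130109 in PCOS mice), and pancreatic acinar markers summed to at most 1.997 FPKM. Adipocyte markers were uneven among controls: Cfd, a defining one, stood at 169, 54.8, 0 and 0 FPKM in control mice and at 0.646, 0, 1.15 and 0.913 FPKM in PCOS mice. Fabp4 and Cidec were likewise highest in control mice 789 and 801. Car3 went the other way, at 691 to 1284 FPKM in control mice and 1122 to 1734.5 FPKM in PCOS mice. None of them was called, and the part of adipocyte markers in the results was not tested. The first principal component, with 36.0% of the variance, placed all 4 PCOS mice on one side and all 4 controls on the other, with PCOS mouse 773 and control mouse 801 farthest out. Without these 2 mice 101 genes were called, 84 of them among the 115 called with all mice. The RNA is from whole tissue, so fewer cells of a type and less RNA per cell cannot be told apart.

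In PCOS liver 62 genes rose and 53 fell. These are 0.442% and 0.378% of the genes tested, 0.82% together. Of the 115, 92 were protein-coding, 14 were long non-coding RNAs and 9 were pseudogenes. The changes were large where they were called: 38 of the rises and 31 of the falls reached 2 or more on the log2 scale. The values of the arms did not overlap for any of the 115, as for 7.09% of all genes tested. The median difference over all genes tested was 0.00297, with 7061 genes higher and 6960 lower. Members of the female-biased list made up 24 of the falls and members of the male-biased list 20 of the rises. A further 71 called genes, 42 higher and 29 lower, were in neither list. The lists do not hold every gene related to their members. Some of the 71 are relatives, neighbours or overlaps of members, such as Slc22a28 and Gm42375, which overlaps Cyp2a4. Being in neither list thus does not place a gene outside the sex-biased programme. The count fell to 74 without PCOS mouse 785. It fell to 43 in a fit that added the livers of 4 PCOS mice given roxadustat, 1 of which, mouse 808, stood with the controls, and 111 of the 115 genes were called in that fit without mouse 808.

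**Figure D1:**
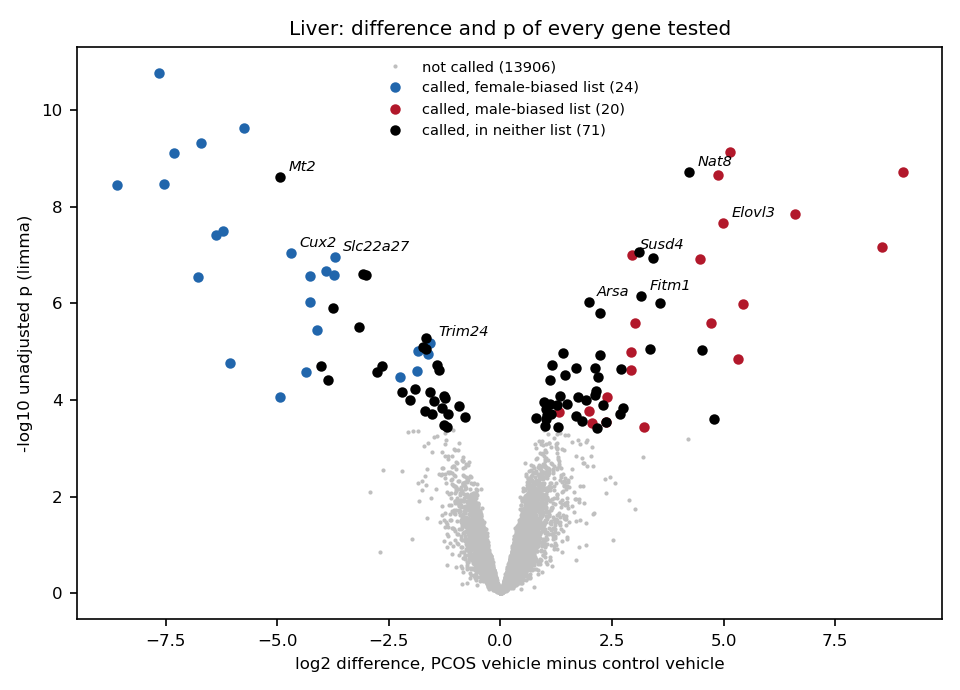
Each point is a gene tested in liver, with the log2 difference between PCOS vehicle and control vehicle (4 mice each) on the x axis and the -log10 of the unadjusted limma p on the y axis. Blue points are called members of the female-biased list and lie left of 0, red points are called members of the male-biased list and lie right of 0, and black points are the 71 called genes of neither list, on both sides.

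Among regulators of the sex-biased programme, Cux2, Trim24 and Prlr fell and Bcl6 rose, 4 of the 38 tested members of the list of growth hormone signalling and sex-bias regulators. The first 3 are also in the female-biased list and Bcl6 in the male-biased list, so these calls are not separate from the counts of those lists. Cux2 (ENSMUSG00000042589, chromosome 5, 121994429 to 122188165, mm39), a homeobox repressor typical of female liver, stood at 25.8, 13.002, 30.9 and 10.8 FPKM in control mice and at 0.591, 0.0346, 0.0244 and 0.434 FPKM in PCOS mice. Every PCOS mouse lay far below the lowest control, and the difference was -4.69 (SE 0.38, adjusted p = 7.19e-05). Trim24, which encodes a chromatin-binding cofactor of nuclear receptors, stood at 20.6, 15.9, 14.3 and 13.4 FPKM in control mice and at 4.88, 4.67, 4.25 and 6.11 FPKM in PCOS mice. The groups were tight and well apart, with a difference of -1.59 (SE 0.20, adjusted p = 0.00222).

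Prlr, the prolactin receptor, stood at 27.9, 38.4, 21.2 and 29.1 FPKM in control mice and at 11.4, 7.96, 8.01 and 9.03 FPKM in PCOS mice (difference -1.61, SE 0.21, adjusted p = 0.00314). Bcl6 moved the other way. This zinc finger repressor, which binds some of the same sites as STAT5, stood at 2.50, 2.07, 1.75 and 2.92 FPKM in control mice and at 5.32, 4.97, 6.99 and 8.77 FPKM in PCOS mice. All PCOS mice were above all controls (difference 1.31, SE 0.24, adjusted p = 0.0268). The call of Bcl6 was lost without any one of mice 770, 785, 789, 801, 802 or 814, with an adjusted p of up to 0.108, and its adjusted p was 0.231 in the fit of 3 arms.

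The upstream genes Ghr and Stat5b showed no call, and neither did the target and feedback genes Igf1, Cish and Socs2. Ghr, the growth hormone receptor, stood between 47.0 and 78.1 FPKM in control mice and between 45.5 and 64.2 FPKM in PCOS mice (difference -0.11, SE 0.20). Stat5b differed by -0.26 (SE 0.24), Igf1, a classic growth hormone target, by -0.13 (SE 0.25) and Cish, a STAT5 target that feeds back on the receptor, by -0.05 (SE 0.51). Socs2, another such feedback gene, stood at 8.79, 17.4, 11.5 and 8.16 FPKM in control mice and at 2.99, 12.97, 1.88 and 4.47 FPKM in PCOS mice. Of the PCOS mice 773 alone was within the control range, and the difference of -1.24 (SE 0.46, adjusted p = 0.347) did not pass. Tox, a nuclear factor with higher levels in female liver, had a difference of -0.85 (SE 0.32, adjusted p = 0.351), with PCOS mouse 814 within the range of controls. Hnf4a, the hepatocyte master regulator, differed by 0.09 (SE 0.21).

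**Figure D2:**
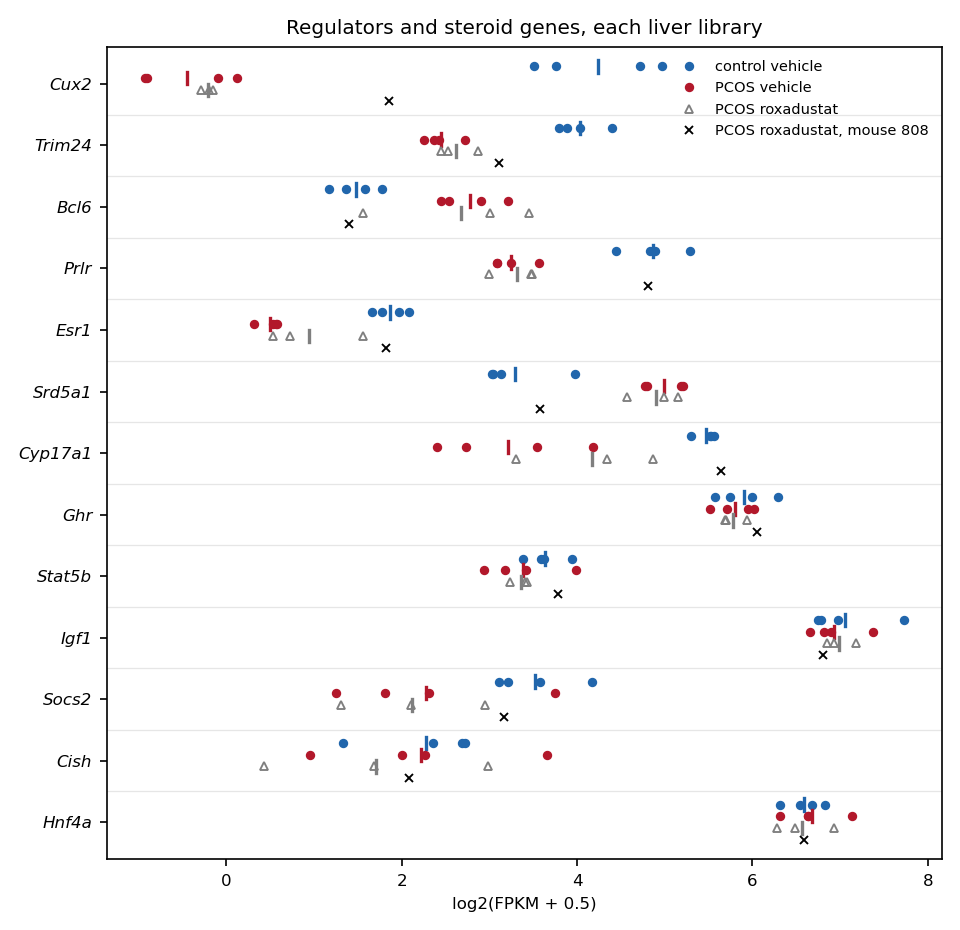
FPKM on the log2(FPKM + 0.5) scale of each liver library, with 4 control vehicle mice in blue, 4 PCOS vehicle mice in red, 3 roxadustat-treated PCOS mice as grey triangles and roxadustat mouse 808 as a cross; short bars are arm means. Cux2, Trim24, Prlr and Esr1 are lower and Bcl6 and Srd5a1 higher in red than in blue with no overlap, while the red and blue points of Ghr, Stat5b, Igf1, Cish and Hnf4a are mixed.

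The STAT-type motif TTCNNNGAA, a palindrome that reads the same on both strands, was searched in RefSeq promoter windows (GRCm38.p6) of 250 bases before to 50 bases after a gene's start. Bcl6 had 3 copies in 1 such window, and the Prlr, Esr1, Sult3a1 and Slc22a26 windows had 1 each. They are shown as examples, for receptors, regulators and members of the female-biased list among the called genes with a match. A second Bcl6 window held 1 more copy, and other called genes with a match, A1bg among them, are not shown. Capitals mark the motif, on the gene's strand, 5′ to 3′.
Bcl6, chr16:23981338-23981476, minus strand: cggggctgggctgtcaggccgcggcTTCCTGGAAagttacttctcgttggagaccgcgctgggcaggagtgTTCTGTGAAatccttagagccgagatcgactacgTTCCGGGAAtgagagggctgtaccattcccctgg
Prlr, chr15:10223771-10223829, plus strand: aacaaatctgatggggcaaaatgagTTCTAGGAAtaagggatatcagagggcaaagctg
Esr1, chr10:4709945-4710003, plus strand: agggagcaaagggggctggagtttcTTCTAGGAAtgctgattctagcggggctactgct
Sult3a1, chr10:33857588-33857646, plus strand: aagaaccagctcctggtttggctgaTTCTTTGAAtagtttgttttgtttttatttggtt
Slc22a26, chr19:7802775-7802833, minus strand: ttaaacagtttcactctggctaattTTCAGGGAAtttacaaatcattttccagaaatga
The motif lay 88, 122 and 168 bases before the start that defines the Bcl6 window shown. In the Prlr and Esr1 windows it lay 110 and 188 bases before the start that defines each. A gene can have more than 1 annotated start, and these windows need not be at its main one. It was present for 6 of 33 matched genes that fell (18.2%) and 6 of 41 matched genes that rose (14.6%), beside 8.47% of the 10236 matched genes tested and 9.55% of all genes of the promoter table. Of all windows of this length 8.30% held it. A match describes these letters only, and no test was made.

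Steroid receptors and enzymes of local steroid metabolism changed in both directions, with 3 of 31 tested members called higher and 3 called lower. Among these, Cyp17a1 is also in the female-biased list and Hsd3b5 in the male-biased list. Esr1, the oestrogen receptor alpha gene, stood at 3.73, 3.41, 2.93 and 2.65 FPKM in control mice and at 0.997, 0.747, 0.946 and 0.980 FPKM in PCOS mice. The PCOS values were close to each other and all below the controls (difference -1.37, SE 0.20, adjusted p = 0.00561). Srd5a1, whose product reduces testosterone to the stronger androgen dihydrotestosterone, stood at 7.72, 15.2, 8.28 and 7.67 FPKM in control mice and at 26.9, 36.0, 27.4 and 36.4 FPKM in PCOS mice. It rose by 1.70 (SE 0.24, adjusted p = 0.00528), with control mouse 801 standing between the other controls and the PCOS mice.

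Cyp17a1, the 17-alpha-hydroxylase of androgen synthesis, stood at 45.1, 46.9, 45.5 and 39.0 FPKM in control livers and at 17.7, 4.79, 11.1 and 6.17 FPKM in PCOS livers. Controls were nearly alike and PCOS mice spread widely below them (difference -2.26, SE 0.33, adjusted p = 0.00693). Hsd3b2, a 3-beta-hydroxysteroid dehydrogenase, rose from 17.5 to 39.5 FPKM on average (difference 1.15, SE 0.16, adjusted p = 0.00493).

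Of the 35 tested female-biased genes 24 fell and 35 were lower, with a median difference of -3.73. The members and the direction of this list were written with earlier results of these data known, so its counts are a description. Genes of steroid and drug oxidation were among the large falls. Cyp2a4, a testosterone 15-alpha-hydroxylase, stood at 722, 994, 1102 and 269 FPKM in control mice and at 50.3, 4.56, 1.74 and 18.3 FPKM in PCOS mice (difference -6.06, SE 0.83, adjusted p = 0.00452). Here the PCOS mice themselves differed widely, with mouse 770 highest and mouse 785 lowest.

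Cyp2b9 and Cyp2b13 are neighbouring P450 genes whose promoter windows were 99.3% identical, the closest pair among the families compared. Both windows are shown whole because the genes fell by different amounts. Capitals mark the 2 bases at which they differ.
Cyp2b9, chr7:26173159-26173458, plus strand: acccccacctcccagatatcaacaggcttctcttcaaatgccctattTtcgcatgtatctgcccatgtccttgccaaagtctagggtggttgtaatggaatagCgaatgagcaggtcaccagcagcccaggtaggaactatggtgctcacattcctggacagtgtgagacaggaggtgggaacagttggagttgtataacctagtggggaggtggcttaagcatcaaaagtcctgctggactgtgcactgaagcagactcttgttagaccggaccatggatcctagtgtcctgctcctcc
Cyp2b13, chr7:26061245-26061544, plus strand: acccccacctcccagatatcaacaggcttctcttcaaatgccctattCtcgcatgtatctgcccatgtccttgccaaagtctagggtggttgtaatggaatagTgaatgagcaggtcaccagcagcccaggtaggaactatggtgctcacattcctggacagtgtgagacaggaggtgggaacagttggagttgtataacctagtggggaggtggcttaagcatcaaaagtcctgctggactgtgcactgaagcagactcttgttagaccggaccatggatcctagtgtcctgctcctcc
Cyp2b9 stood at 215, 181, 207 and 234 FPKM in control mice and at 28.9, 0.465, 4.67 and 14.4 FPKM in PCOS mice. Cyp2b13 stood at 133 to 198 FPKM in control mice and at 0.0465 to 0.898 FPKM in PCOS mice. Levels were of like size in controls, but 3 of the 4 PCOS mice kept more Cyp2b9 than any PCOS mouse kept Cyp2b13. The Cyp2b9 difference was -4.93 (SE 0.81, adjusted p = 0.0155), and its call was lost without mouse 785, 789 or 804, with an adjusted p of up to 0.0613. Reads of such close paralogs may be shared between them.

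A pair of transporters of the organic anion family fell while their neighbour rose. Slc22a26 stood at 74.5, 102, 70.1 and 57.6 FPKM in control mice and at 7.29, 1.68, 1.998 and 4.997 FPKM in PCOS mice (difference -4.26, SE 0.38, adjusted p = 0.000141). Slc22a27 followed it, at 39.4, 38.4, 32.7 and 27.3 FPKM in control mice against 4.05, 0.972, 2.09 and 2.27 FPKM in PCOS mice (difference -3.72, SE 0.30, adjusted p = 7.53e-05). Slc22a28 went the other way, from 1.43, 0.154, 0.310 and 1.79 FPKM to 8.06, 18.4, 15.4 and 9.20 FPKM (difference 3.35, SE 0.43, adjusted p = 0.00280). Mouse 773 had the lowest Slc22a26 and Slc22a27 and the highest Slc22a28. The promoter windows of these 3 genes were 42.3% to 44.7% identical.

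Abcd2, a peroxisomal transporter of very long-chain acyl groups, was the 1 member called among 42 tested genes of fatty acid oxidation. It stood at 14.8, 11.8, 8.68 and 11.9 FPKM in control mice and at 2.62, 2.52, 2.26 and 4.38 FPKM in PCOS mice (difference -1.85, SE 0.24, adjusted p = 0.00296). Other falls of the female-biased list were listed at 0 in all 4 PCOS mice and have no fold. Sult2a5, a sulfotransferase gene, stood at 3.63 to 14.2 FPKM in control mice, and Sult3a2 at 3.04 to 11.6 FPKM.

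Of the 32 tested male-biased genes 20 rose and 31 were higher, with a median difference of 2.38. As with the female-biased list, this is a description. Elovl3, an elongase of very long-chain fatty acids, stood at 0.482, 0.467, 0.244 and 1.30 FPKM in control mice and at 20.2, 59.1, 34.3 and 30.2 FPKM in PCOS mice (difference 4.99, SE 0.35, adjusted p = 2.37e-05). The lowest PCOS mouse, 770, was still far above the highest control. Susd4, whose product holds sushi domains and inhibits complement, rose from 0.514, 1.12, 0.822 and 0.970 FPKM to 10.3, 10.6, 11.9 and 6.85 FPKM (difference 2.94, SE 0.24, adjusted p = 7.38e-05).

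Some complement components rose with it, with 3 of 36 tested members of the complement and coagulation list called higher and 0 called lower. Of these 3, C6 and C4a are also in the male-biased list. Over the 36 members 22 were higher and 14 lower, with a median difference of 0.16 (17 higher and 19 lower after quantile normalisation). C6, part of the membrane attack complex, stood at 5.05, 7.27, 5.32 and 5.20 FPKM in control mice and at 24.9, 95.2, 53.3 and 44.9 FPKM in PCOS mice (difference 3.01, SE 0.34, adjusted p = 0.000953). C4a, a C4 paralog that the files class as a long non-coding RNA, rose by 2.91 (SE 0.38, adjusted p = 0.00296). C8a, another part of the attack complex, rose by 1.69 (SE 0.31, adjusted p = 0.0301), from 37.4 to 87.7 FPKM in control mice to 116 to 291 FPKM in PCOS mice. Its call was lost without mouse 773, 785, 789, 801, 802 or 814, with an adjusted p of up to 0.107. C8b and C9, which join C6 and C8a in the complex, differed by 1.19 (SE 0.31) and 1.01 (SE 0.23) without passing (adjusted p = 0.168 and 0.103). These 2 partners were named after their values were seen.

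The PCOS mice were not equal in extent. Over the 20 called male-biased genes mouse 773 was highest of the 4 PCOS mice in 16 and mouse 770 lowest in 16. Over the 24 called female-biased genes mouse 770 was highest in 12, mouse 814 in 8 and mouse 773 in 2, and 2 genes were listed at 0 in all 4. With ties counted for each mouse, mice 773 and 785 were each lowest in 13, mouse 770 in 8 and mouse 814 in 2. As a share of all reads, the male-biased list took 0.396%, 0.591%, 0.362% and 0.439% in control mice and 1.39%, 3.96%, 1.88% and 2.10% in PCOS mice. The female-biased list took 0.648%, 0.736%, 0.643% and 0.570% in control mice and 0.152%, 0.0539%, 0.0583% and 0.0990% in PCOS mice. Neither share overlapped between the arms. Both lists were written with earlier results of these data known, so this separation is a description. Mouse 773 also had the lowest share of mitochondrial reads, 4.02% beside 13.8% to 17.6% in the other PCOS mice and 7.87% to 17.8% in controls. The part of this in its levels was not tested.

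With steps of up to 500 kb between the starts of called genes, 53 of the 115 fell into 17 groups, a count with no comparison to other genes. A group runs from its first to its last called gene, so it leaves out genes beyond these by construction. Within these bounds every tested gene was called in most groups. All genes fell in the Cyp3a group of chromosome 5 (5 of 5), among others. On chromosome 7 they also fell throughout the Cyp2b and Cyp2a group (5 of 5) and the Sult2a group (4 of 4). Some groups held uncalled genes, and 2 of 13 tested were called in the one from Fam222a to Hnf1aos1. Both directions occurred in 3 groups. Within chromosome 3, 98525950 to 98800555 (mm39), Hsd3b5 and Hsd3b2 rose while Hao2, a peroxisomal hydroxy acid oxidase, fell from 24.9, 28.3, 17.4 and 13.6 FPKM to 2.03, 0, 0.439 and 0.616 FPKM (difference -4.27, SE 0.43, adjusted p = 0.000425). Within chromosome 19, 4008645 to 4087985, the aldehyde dehydrogenase genes Aldh3b3 and Aldh3b2 fell while Gstp1, a glutathione transferase, rose by 2.36 (SE 0.45, adjusted p = 0.0371), with 3 of 7 tested genes called. The call of Gstp1 was lost without mouse 785, 789, 801 or 804 and that of Aldh3b2 without 773, 785, 801, 802, 804 or 814, with adjusted p of up to 0.125 and 0.0984. Hao2, Aldh3b2, Sult2a5, Sult3a2 and Susd4 were named after their values were seen.

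**Figure D3:**
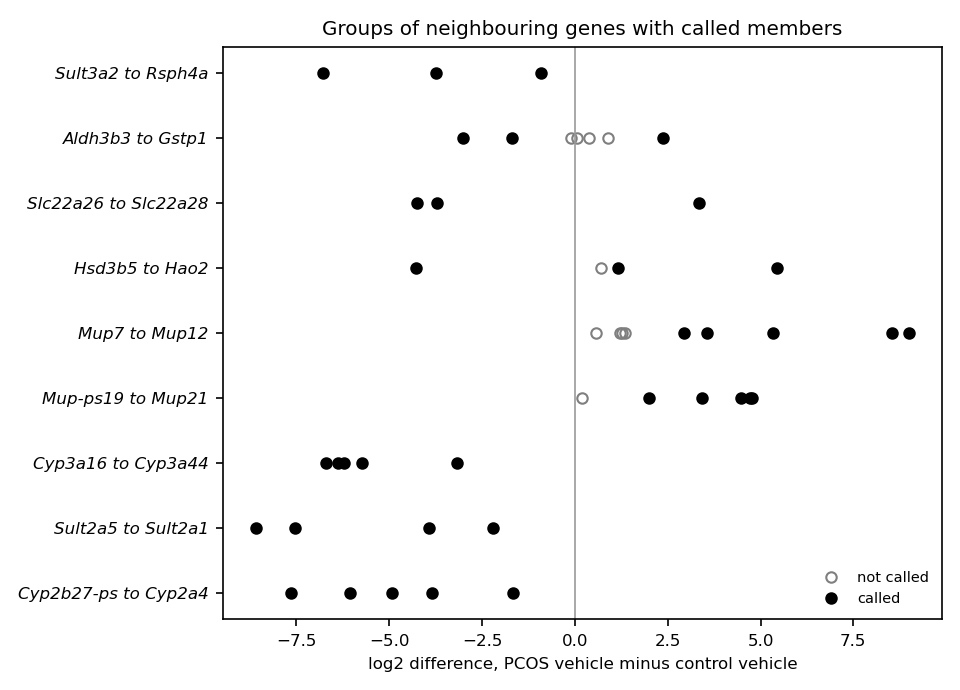
Each row is a group of neighbouring genes with at least 3 called, of those reported here, named by its first and last called gene, and each point is the log2 difference of 1 tested gene between PCOS vehicle and control vehicle (4 mice each). Filled points are called and open points are not; the rows of Aldh3b3, Slc22a26 and Hsd3b5 have called genes on both sides of 0, and the other rows have them on one side.

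Outside the sex-biased lists both metallothionein genes tested under these names, Mt1 and Mt2, fell. These small cysteine-rich proteins bind zinc and copper, and their genes respond to zinc and to glucocorticoids. Mt2 (ENSMUSG00000031762, chromosome 8, 94899292 to 94900196, mm39) stood at 17.0, 29.7, 23.6 and 14.7 FPKM in control mice and at 0.127, 0, 0.418 and 0.286 FPKM in PCOS mice. It was all but absent from PCOS liver (difference -4.93, SE 0.28, adjusted p = 3.72e-06). Mt1, at a higher level, stood at 341, 788, 544 and 339 FPKM in control mice and at 41.2, 150, 70.6 and 52.4 FPKM in PCOS mice (difference -2.76, SE 0.40, adjusted p = 0.00585). The other 8 tested members of the metallothionein and zinc list were not called, and 9 of the 10 members were lower.

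Other falls outside these lists were of single genes with different roles. Eci3, an enoyl-CoA isomerase, stood at 4.59, 2.03, 6.52 and 6.05 FPKM in control mice and at 0.840, 0.307, 0.0577 and 0.119 FPKM in PCOS mice (difference -2.66, SE 0.37, adjusted p = 0.00501). Acnat2, a peroxisomal acyl transferase, fell by 1.41 (SE 0.20, adjusted p = 0.00490), and its lowest control, at 27.6 FPKM, was well above its highest PCOS mouse, at 14.6 FPKM. Ccnd1, the cyclin D1 gene that drives entry into the cell cycle, stood at 3.69, 3.51, 4.67 and 3.74 FPKM in control mice and at 1.74, 0.555, 0.782 and 1.02 FPKM in PCOS mice (difference -1.58, SE 0.25, adjusted p = 0.0131). It was the 1 call among 25 tested cell cycle genes, and was lost without mouse 785 (adjusted p = 0.0617). Tcf7, a transcription factor of Wnt signalling, fell by 1.26 (SE 0.21, adjusted p = 0.0153), a call lost without mouse 770, 785, 789 or 804, with an adjusted p of up to 0.0709.

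Among the rises outside these lists, Nat8 and its neighbour Nat8f5 went from near 0 to levels above 20 FPKM in most PCOS mice. Nat8, an acetyltransferase of cysteine conjugates, stood at 0.495, 1.005, 1.17 and 1.46 FPKM in control mice and at 24.7, 24.7, 32.8 and 28.0 FPKM in PCOS mice (difference 4.23, SE 0.23, adjusted p = 3.72e-06). Its highest control was far below its lowest PCOS mouse. Nat8f5 was listed at 0 in 3 of 4 controls, mice 789, 801 and 804, and at 0.840 FPKM in mouse 802. Those 3 control libraries had 1337, 438 and 774 genes at 1 to 3 reads, beside 2296 in mouse 802. The part of this in the listing at 0 was not tested. In PCOS mice Nat8f5 stood at 21.0, 3.27, 24.2 and 22.8 FPKM (difference 4.52, SE 0.58, adjusted p = 0.00290). For this gene mouse 773 was the lowest PCOS mouse, unlike for most male-biased genes.

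Fitm1 (ENSMUSG00000022215, chromosome 14, 55813074 to 55814411, mm39), an endoplasmic reticulum protein of lipid droplet formation that is typical of muscle, stood at 4.25, 4.54, 7.03 and 7.71 FPKM in control livers and at 69.9, 31.8, 46.7 and 84.4 FPKM in PCOS livers (difference 3.15, SE 0.31, adjusted p = 0.000347). Arsa, the lysosomal arylsulfatase that degrades sulfatides, stood at 3.52, 3.82, 3.90 and 4.53 FPKM in control livers and at 21.1, 14.2, 20.1 and 13.7 FPKM in PCOS livers (difference 1.98, SE 0.20, adjusted p = 0.000425). Controls were nearly alike for Arsa, and each PCOS mouse was far above them. Nox4, an NADPH oxidase that makes hydrogen peroxide, stood at 1.56, 1.91, 1.53 and 2.11 FPKM in control livers and at 4.14, 6.75, 6.02 and 6.33 FPKM in PCOS livers (difference 1.46, SE 0.21, adjusted p = 0.00665).

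Alas2, the erythroid enzyme that starts haem synthesis, rose by 2.11 (SE 0.30, adjusted p = 0.00528), from 3.04, 4.40, 4.59 and 9.47 FPKM to 24.1, 17.7, 29.3 and 22.6 FPKM. It was the 1 call among 6 tested erythroid markers, which summed to 751 to 1263 FPKM in control mice and 925 to 2293 FPKM in PCOS mice. The part of blood cells in its rise was not tested. Mcm10, a DNA replication factor, rose by 1.34 (SE 0.22, adjusted p = 0.0155), with a call lost without mouse 770, 785, 789 or 804 (adjusted p of up to 0.0588). Meg3, an imprinted long non-coding RNA, rose by 1.29 (SE 0.25, adjusted p = 0.0448), from 0.145 to 0.416 FPKM in control mice to 0.884 to 2.27 FPKM in PCOS mice, a call lost in each of the 8 fits without 1 mouse at adjusted p of 0.0534 to 0.119. Snhg11, a small nucleolar RNA host gene that the files class as protein-coding, stood at 0.801, 0.794, 0.914 and 0.658 FPKM in control mice and at 7.44, 3.71, 6.86 and 5.08 FPKM in PCOS mice (difference 2.24, SE 0.24, adjusted p = 0.000624). It kept its call in all 8 such fits.

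**Figure D4:**
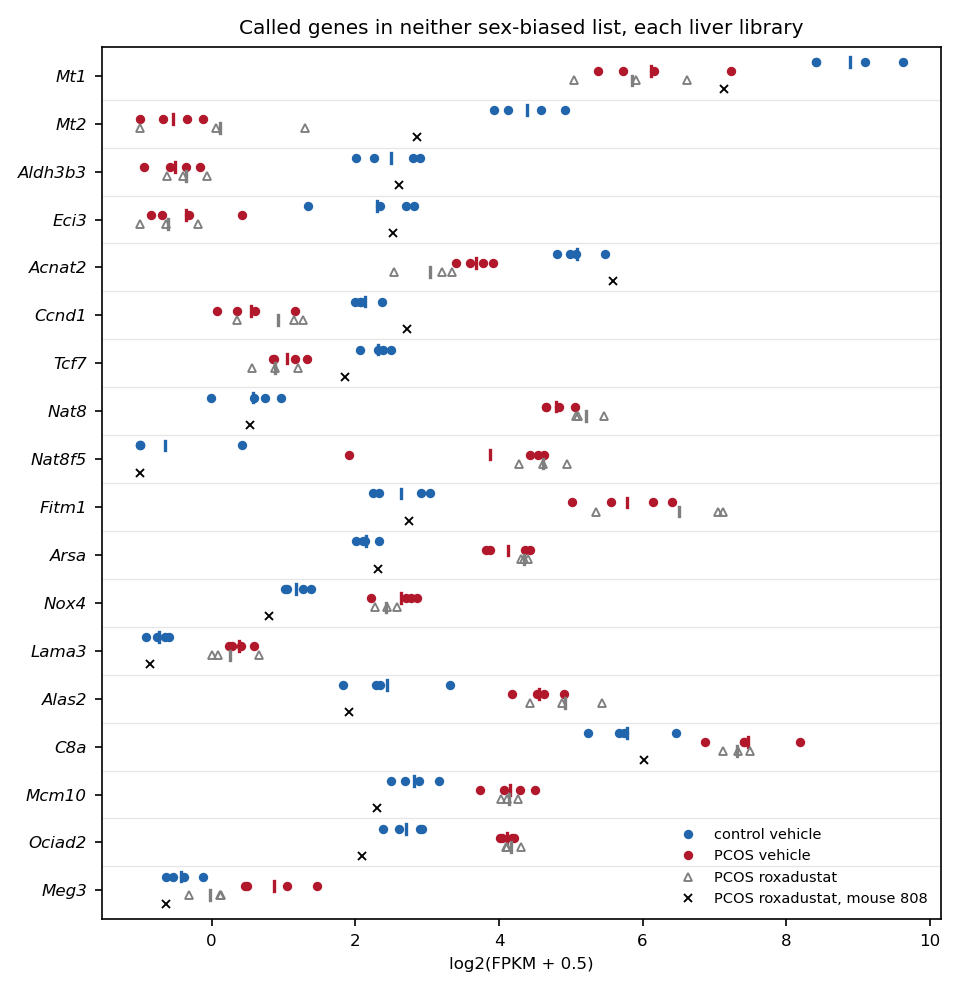
FPKM on the log2(FPKM + 0.5) scale of each liver library for called genes of neither sex-biased list, with 4 control vehicle mice in blue, 4 PCOS vehicle mice in red, 3 roxadustat-treated PCOS mice as grey triangles and roxadustat mouse 808 as a cross; short bars are arm means. Red points lie below blue ones from Mt1 to Tcf7 and above them from Nat8 to Meg3, and the cross lies on the side of the blue points for most genes.

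Other gene groups of liver metabolism held few calls or none. Of all genes tested 0.82% were called, so a short list would often hold 0 calls, and a count of 0 says little about its members. Glucuronosyltransferases had 0 of 16 tested members called, gluconeogenesis and glycogen genes 0 of 30, insulin signalling 0 of 26 and HIF targets 0 of 36. Bile acid genes had 1 call among 21 and fatty acid and triglyceride synthesis 1 among 33. Periportal and pericentral hepatocyte genes, which mark the inflow and outflow zones of the lobule, had 0 calls among 22 and 24. Of the pericentral genes 21 of 24 were lower, with a median difference of -0.27. Nuclear genes of oxidative phosphorylation had 0 calls among 60, with 55 higher and a median of 0.48 (45 and 0.30 after quantile normalisation), and cytosolic ribosomal protein genes 0 among 59, with 49 higher and a median of 0.30 (42 and 0.12 after quantile normalisation). PCOS mouse 773 stood out in both of these lists. Its ribosomal protein genes summed to 19499 FPKM, beside 9216 to 10910 in the other PCOS mice and 7560 to 9938 in controls. Its oxidative phosphorylation genes summed to 15015 FPKM, beside 9028 to 10360 in the other PCOS mice and 5818 to 7990 in controls. At an unadjusted p under 0.05 there were 33 oxidative phosphorylation, 14 ribosomal, 7 glucuronosyltransferase, 4 pericentral, 4 gluconeogenesis and 0 insulin signalling genes, beside 1573 of all 14021. Markers of Kupffer cells, endothelium, stellate cells and cholangiocytes had 0 calls among 15, 13, 13 and 8 tested, lists too short for this to be informative.

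**Figure D5:**
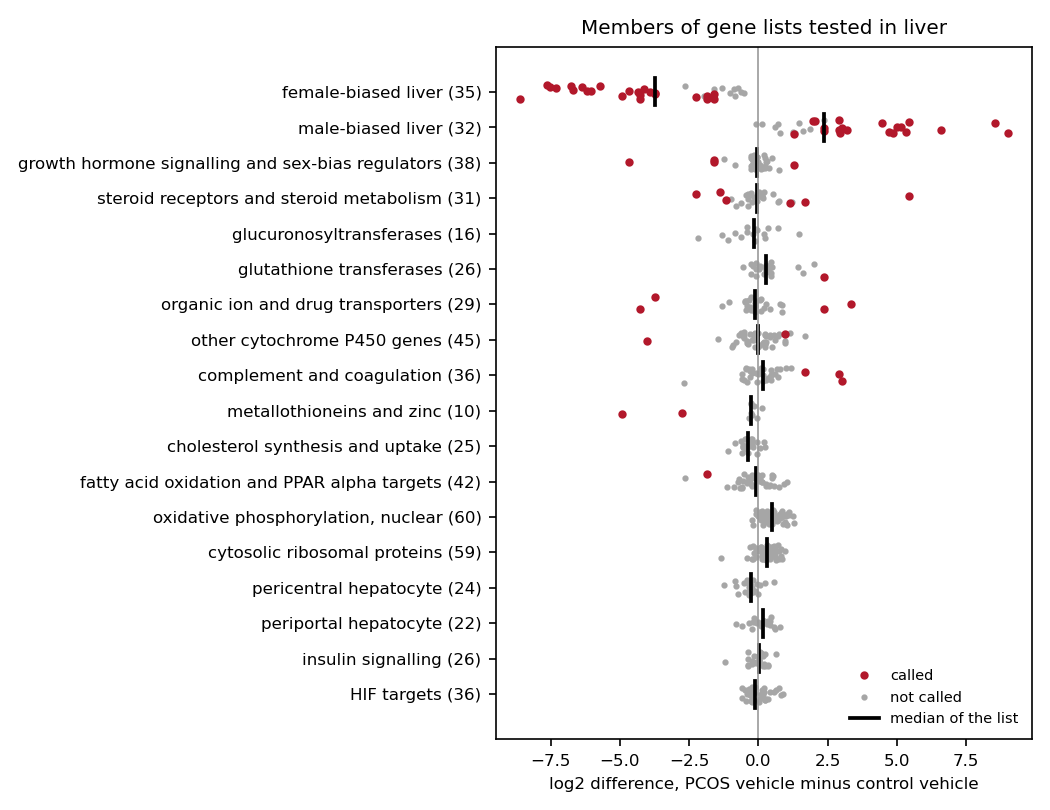
Each point is a tested member of a gene list, with its log2 difference between PCOS vehicle and control vehicle (4 mice each) on the x axis and the number of members tested in brackets; red points are called and black bars are list medians. The medians of the female-biased and male-biased lists lie at -3.73 and 2.38, and those of the other lists lie between -0.38 for cholesterol synthesis and 0.48 for oxidative phosphorylation.

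The same 8 mice gave muscle libraries, and the liver difference was tested against the muscle difference as an interaction. Of 14918 genes 76 passed (0.509%), and 53 of these had been called in liver. The muscle table lists 76 of the 115 liver calls. Some that passed were near 0 in muscle, so that their interaction mainly repeats the liver difference. Among these were C6, with means of 0 and 0.123 FPKM in control and PCOS muscle, and C4a, with 0.0177 and 0.0704 FPKM. With mouse as a replicate block 53 genes passed, without mouse 785 or 789 46 and 49, and with a pseudocount of 0.1 in place of 0.5 35. Mt1 stood at 4.98 ± 1.78 FPKM in muscle of control mice and at 5.84 ± 2.61 in that of PCOS mice (SD, n = 4), and its liver difference was lower by 2.97 (SE 0.55, adjusted p = 0.0151). Trim24, at 7.95 ± 1.02 and 9.75 ± 1.41 FPKM in muscle, and Abcd2, at 13.4 ± 2.30 and 13.9 ± 1.44 FPKM, had liver differences lower than in muscle by 1.86 (SE 0.23, adjusted p = 0.000311) and 1.92 (SE 0.27, adjusted p = 0.00159). Fitm1, at 188 ± 11.8 and 234 ± 24.8 FPKM in muscle, had a liver difference higher by 2.83 (SE 0.35, adjusted p = 0.000367). Meg3 was lower in PCOS muscle, 2.48 ± 0.275 against 1.62 ± 0.236 FPKM, and its interaction was 1.78 (SE 0.29, adjusted p = 0.00508). Esr1, at 3.004 ± 0.441 and 2.48 ± 0.239 FPKM in muscle, had an interaction of -1.14 (SE 0.21, adjusted p = 0.0124), which did not pass with the replicate block (adjusted p = 0.0676). The differences between tissues of Bcl6 and Alas2 did not pass (adjusted p = 0.379 and 0.422).

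Roxadustat-treated PCOS mice of the same study, which also received letrozole, were measured for the same genes. For 3 of them, mice 767, 782 and 795, the level was nearer to the control mean than to the PCOS vehicle mean in 5, 6 and 7 of the 115 called genes. The library labelled mouse 808 was nearer to the control mean in 105 of 115 (91.3%). Its Cux2 stood at 3.12 FPKM against 0.320 to 0.403 FPKM in the other 3, and its Nat8 at 0.948 against 33.0 to 43.6 FPKM. The comparison of PCOS vehicle with control vehicle does not use this library. In the fit of 3 arms with it, Prlr, Esr1, Cyp17a1, Hsd3b2, Sult3a1, Slc22a28, C4a, C8a, Nox4, Fitm1, Eci3, Nat8f5, Snhg11, Alas2, Acnat2, Cyp2b9, Ccnd1, Tcf7, Gstp1, Aldh3b2, Mcm10, Meg3 and Bcl6 were not called, at adjusted p from 0.05005 (Prlr, Esr1, Cyp17a1, Meg3 and Aldh3b2) to 0.278 (Acnat2). All of these but Bcl6 (adjusted p = 0.109) were called in it without mouse 808. With voom on recovered reads Sult3a1, Eci3 and Nat8f5 did not pass.

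Many of the named genes have close paralogs (Mup, Cyp2a, Cyp2b, Cyp3a, Cyp4a12, Sult2a, Sult3a, Slc22a, Nat8 and Hsd3b families) or overlap another annotated gene (among them Sult3a1, Slc22a27, Arsa, Srd5a1, Bcl6, C8a, Mt2, Fitm1, Alas2 and Nat8f5). The labels describe directional and non-directional preparation without saying which was used, so the share of such genes within their family or overlap is uncertain.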

How the data were processed

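Poly-A RNA was sequenced from liver and muscle of the same 8 mice, 4 per arm, 1 library per mouse and tissue. Per the submitters' processing notes, CASAVA 1.8, HISAT2 2.0.5, mm39 and DESeq2 1.20.0 were used, with roles not given in the sources used here. Values are FPKM as deposited by the authors, per the file headers. The deposited gene length in bases served to recover whole reads from the FPKM steps (within 0.001), which gave depth and the filter of 10 depth-scaled reads in 4 libraries and 15 in total. The authors' library size was 0.776 to 0.931 of the recovered reads.

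limma 3.58.1 (R 4.3.3) with an intensity trend was fitted to log2(FPKM + 0.5), two-sided, with Benjamini-Hochberg adjustment, and was tested on simulated data. No count model was fitted, except voom as an alternative. Further alternatives changed the pseudocount, filter, scaling, weights and libraries. The interaction with muscle used genes listed in both tables. Liver and muscle libraries share animals, and their same-mouse deviations correlated at -0.196 to 0.214. Spearman correlations between liver libraries were 0.877 to 0.964, so none repeats another.

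Named genes were the 12 largest rises and falls, up to 5 called members of each list by p (2 with lowest p where none was called), up to 30 further called genes, fixed regulators and markers. The members, gene lists and rules were chosen with earlier results of these data known. Promoter windows came from RefSeq (GRCm38.p6), matched by symbol for 10236 tested genes. The authors' fold changes and p-values were not used. Some items are not reported here.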

Additional observations from a re-analysis of the deposited data

Results flagged for a closer look

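Among named genes, single mice stood apart from their arm in Dixon's test, which flags about 1 in 20 groups by chance. With 136 named genes and several arms, as many flags as given here can arise by chance, so they are a description. Control mouse 801 was high for Hsd3b5 (8.28 FPKM), Cyp4a12a (1.27 FPKM), C6 (7.27 FPKM) and Srd5a1 (15.2 FPKM), all genes that rose in PCOS mice. PCOS mouse 814 was high for Sult2a2 (2.27 FPKM), Abcd2 (4.38 FPKM) and Tox (1.74 FPKM), which were lower in the PCOS arm, Tox without passing the test. PCOS mouse 773 was high for Mup11 (977 FPKM) and Gm35696 (8.12 FPKM) and low for Nat8f5 (3.27 FPKM). PCOS mouse 770 was high for Gm42375 (3.50 FPKM), which overlaps Cyp2a4. In the roxadustat arm mouse 808 was high for Cyp2b13 (124 FPKM) and Sult2a2 (366 FPKM). The difference between liver and muscle passed the interaction test for 76 genes, 23 of them not called in liver.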

How the results depend on the processing

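The count of 115 called genes became 43 in the fit of 3 liver arms and 157 in that fit without roxadustat mouse 808. With 1 mouse left out the count was 74 to 126, and the causes of these shifts were not tested further. It was 88 to 152 under the other alternatives of scaling, filter, pseudocount, weights and voom planned for this comparison, with 52 higher and 58 lower in voom, where the median of all genes shifted to -0.101. A term for libraries with under 1500 genes at 1 to 3 reads left 92. These libraries were control mice 789, 801 and 804 and PCOS mouse 773, so the trait is uneven between the arms. The fits without mice 773 and 801 together (101) and of 3 arms without roxadustat mouse 808 (157) were chosen after seeing the data. Of the 115 genes, 34 stayed called in all 18 other settings tried for it before the added fits and 70 in all 8 fits without 1 mouse.

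The interaction count of 76 became 35 with a pseudocount of 0.1 and 84 with 1, the cause of which was not tested, and 46 to 67 without 1 mouse. With mouse as a replicate block it was 53. Over 136 named genes and 2709 pairs of gene and alternative, 2547 kept direction and side of the threshold, 150 lost a call, 12 gained one and 0 reversed. Quantile normalisation and voom left 45 and 51 of the 60 oxidative phosphorylation genes higher. With 4 mice per arm, small changes are beyond reach, and a gene listed at 0 may still hold a few reads.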
